A study of Tachycineta bicolor with 30 samples.

Results

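The ventromedial telencephalon (VmT) of female tree swallows (Tachycineta bicolor) was compared between incubation (INC) and territory establishment (TE). The VmT is a strip of the ventral and medial hind telencephalon cut around nucleus taeniae, the bird counterpart of the medial amygdala. The comparison was chosen by tissue and stage label alone and holds 9 of the 27 libraries in the deposited table, 5 of VmT_INC and 4 of VmT_TE. The labels list 30 samples, and 1 TE sample of each region was not analysed here. INC females were free-living adults whose clutches had been completed some days before, and TE females were free-living adults that were fighting over nest boxes and carried only small follicles. All were female, no treatment or genetic change was applied, and 1 library is 1 macrodissected tissue block of 1 female, so that neighbouring tissue can enter it. Stage is confounded with date and with reproductive state, which cannot be told apart here.

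Nucleus taeniae belongs to the network of forebrain nodes that responds to sex steroids and to the nonapeptide vasotocin and takes part in social and aggressive behaviour in birds. Bulk tissue gives the summed RNA of neurons, glia and vessels, and fewer cells of a type and less RNA per cell cannot be told apart in it.

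Values are normalized counts: a library's reads for a transcript over a scaling factor of that library, with length left in. With the scaling undone they give 7152856 to 13710385 reads per VmT library. Per-library values are given in 1 fixed order of female numbers, INC 85757, 85774, 85840, 85889 and 85899 and TE 85674, 85689, unsettled and 85694. The name of the third TE library fits the title of 1 TE female and the description of another, so its stage is certain and its female is not. It is called the unsettled library. The study left 1 TE female out because of poor hypothalamic and hindbrain RNA. One of the 2 females that the name fits has no hypothalamic or hindbrain library in the table, so the unsettled library may come from the female left out. Its part in the results was not tested beyond leaving it out. Log2 fold changes are INC minus TE on log2(normalized count + 1), so that a positive one is higher in INC and low counts are understated, and come from limma with Benjamini-Hochberg adjustment over 19473 transcripts. Called means that the adjusted p did not exceed 0.05. Gene symbols rest on the best protein match, mostly in other birds. Females are the replicates, and SDs are over 5 INC or 4 TE females.

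Of the transcripts tested, 687 (3.53%) were called, 604 (3.1%) higher in INC and 83 (0.426%) lower in INC. The calls were uneven in size as well as in number. The median log2 fold change was 0.92 among those higher in INC and -0.48 among those lower in INC, and 257 of the first but 8 of the second differed by at least 2-fold. The 2 sets also differed in abundance, with a mean under 50 for 206 of the 604 and 11 of the 83. The part of abundance in the sizes was not tested. Over all transcripts tested the median was -0.01, with 48.6% positive, so the calls leaned to INC while the bulk of transcripts did not. All INC females were above all TE females for 3.07% of transcripts and below them for 1.31%, so that 4.38% did not overlap. Among the 687 called transcripts, 444 did not overlap. Calls and overlap rest on the same values, so a lack of overlap in the called genes below is a description and adds no support. Among the 604 transcripts higher in INC, the lowest TE value was in the unsettled library for 334, in 85689 for 160, in 85674 for 86 and in 85694 for 24. Over all transcripts with a mean of at least 50 these libraries were lowest for 3431, 2616, 3033 and 2588. The unsettled library was also the deepest, at 13710385 reads, against 8803386 to 9648786 in the other TE libraries. The part of depth was not tested. The count of calls was 344 without 85689, 395 without 85889 and 425 without the unsettled library, and it was 3 when the spread was estimated from the 9 VmT libraries alone (0.0154%), where 2138 transcripts had an unadjusted p under 0.05.

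The label of the tissue was checked against markers of each region. TBR1, a transcription factor of telencephalic glutamate neurons, had normalized counts of 133 ± 52.995 in INC and 99.1 ± 35.5 in TE, and the 29 telencephalon markers had a median log2 fold change of -0.12 with 0 called, against 3.53% of all transcripts. Of these, 17 were negative, among them the abundant ARPP21 and LMO3 (both -0.41, adjusted p = 0.232 and 0.102). The summed normalized counts of the list were 32105 in TE female 85674 and 38563 in 85689, and at most 31901 in any other library. Its mean log2 value was highest in INC female 85889, at 8.53. Hox genes, which mark the hindbrain, were at or near 0: HOXA3 had no read in any VmT library, and HOXA2 and HOXA5 were above 0 in at most 2 of the 9. The 19 hindbrain markers measured had a median log2 fold change of 0, with 0 called, against 3.53% of all transcripts. Their mean log2 value was 1.58 in INC female 85757, against 0.98 to 1.40 in the other VmT libraries. NKX2-1 of the ventral forebrain and hypothalamus had 38.8 ± 5.58 in INC and 48.1 ± 12.6 in TE. The 18 hypothalamic markers measured leaned the other way, with 13 positive and 5 negative log2 fold changes and a median of 0.57. Their mean log2 value was 3.84 to 5.18 in INC and 3.71 to 4.37 in TE, with overlap. Markers of the thalamus and midbrain, the regions behind the telencephalon, differed between the stages. All 29 of them had a positive log2 fold change, against 48.6% of all transcripts, with a median of 0.98. Of the 29, 4 were called higher in INC, against 3.1% of all transcripts.

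**Figure D1:**
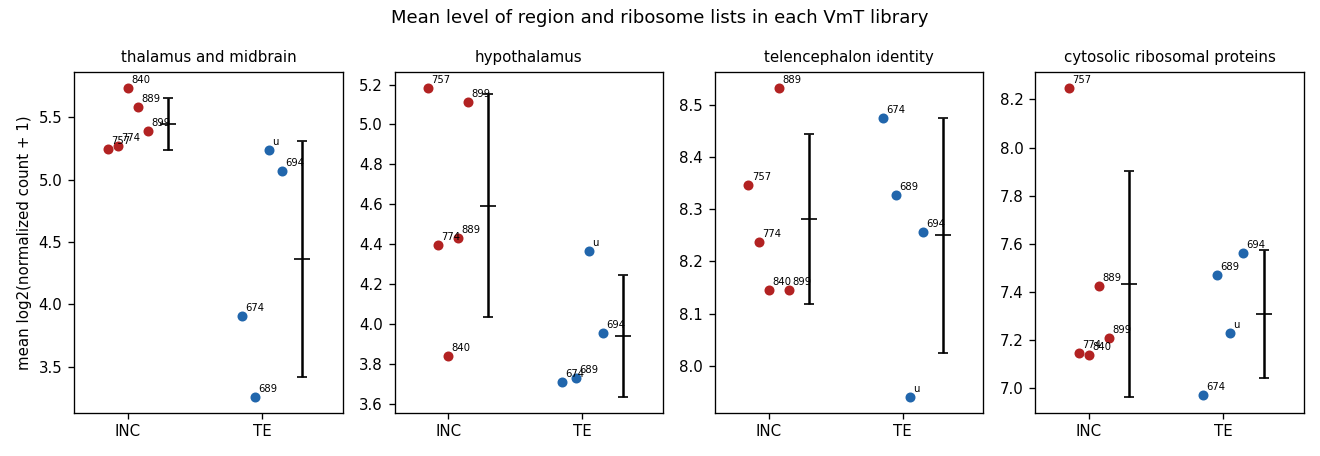
Mean log2(normalized count + 1) of 4 gene lists in each VmT library, INC left and TE right, points labelled with the last digits of the female number (u, the unsettled library) and bars giving the mean and SD. On the thalamus and midbrain list 85674 and 85689 lie at 3.90 and 3.26, under every other library, and on the ribosomal list 85757 lies at 8.25, above every other library.

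The thalamus and midbrain list was lowest in 2 of the 4 TE females. The mean log2 value of the list was 5.24, 5.27, 5.73, 5.58 and 5.39 in INC females, against 3.90, 3.26, 5.23 and 5.07 in TE females. On this measure the unsettled library and 85694 were just under the INC range, while 85674 and 85689 were far below it. Summed normalized counts of the list were 4561 to 6972 in INC, with the unsettled library inside that range at 6120. TE females 85674, 85689 and 85694 were below it, at 3140, 2896 and 4290. GATA3, a transcription factor of GABA neurons in thalamus and midbrain, had 86.2, 119.9, 166, 94.1 and 55.6 in INC, against 30.8, 6.50, 55.8 and 42.9 in TE. LHX5, a LIM homeobox factor of the diencephalon, had 60.3, 63.5, 89.2, 65.1 and 60.03 in INC, against 33.6, 15.8, 44.5 and 59.5 in TE, and POU4F2, a POU factor of the midbrain roof, had 1.85, 4.70, 15.7, 14.9 and 11.1 in INC, against 0.933, 0, 4.39 and 1.95 in TE. SOX14, a transcription factor of GABA neurons in the same regions, had 147, 122, 240.2, 118 and 95.6 in INC, against 31.7, 6.50, 60.2 and 59.5 in TE. In each of these 4 called members the lowest library was 85689, and the groups did not overlap for LHX5 and SOX14 but did for GATA3 and POU4F2. The log2 fold changes were 1.83, 0.93, 1.90 and 2.17 (adjusted p = 0.00607, 0.0226, 0.04 and 0.00311). LEF1 and GBX2, both thalamic, had log2 fold changes of 0.80 and 0.72 and were not called (adjusted p = 0.0794 and 0.303). Without 85674 and 85689 the median of the list was 0.25 with 0 members called, and the count over all transcripts was 110 (0.565%), of which 102 were among the 687. All 604 higher and 83 lower transcripts kept their direction without the pair. They were chosen by the full fit, whose other libraries enter this one too, so the kept direction is only a description. When the level of the list entered the fit, 4 transcripts were called. The part of this list in the results below was not tested beyond these values.

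Hypothalamic peptides varied widely between INC females. VT, the avian vasopressin, had 212, 162, 65.0, 354 and 389 in INC, against 82.1, 41.8, 78.4 and 51.7 in TE, higher in 4 INC libraries than in any TE library but not called (log2 fold change 1.69, standard error 0.57, adjusted p = 0.107). It did pass with edgeR and DESeq2 on the recovered reads (adjusted p = 0.0275 and 0.0249). NPVF, the precursor of gonadotropin-inhibitory hormone, had 37.1, 12.9, 3.15, 4.71 and 331 in INC, against 0, 1.86, 19.4 and 9.75 in TE, with 1 INC female far above every other library (log2 fold change 2.08, adjusted p = 0.28). CARTPT, a peptide of feeding and stress circuits, was the 1 called member of the 18 hypothalamic markers measured, where 3.1% of all transcripts were called higher. It had 137, 68.2, 76.6, 98.8 and 84.5 in INC, against 58.8, 32.5, 47.7 and 57.5 in TE (log2 fold change 0.90, adjusted p = 0.0412). The hypothalamic list had a median of 0.57. PRL, made in the pituitary, was at 0 in all 4 TE libraries and in 2 INC libraries and between 2.35 and 10.2 in the rest. All 6 pituitary markers measured had a positive log2 fold change (median 0.87), against 48.6% of all transcripts, and 0 were called, against 3.53%. Their mean log2 value was 3.34 to 4.02 in INC and 2.34 to 3.21 in TE, without overlap. Their summed normalized counts overlapped, at 4322 to 8295 in INC and 3788 to 5182 in TE. CHGA alone made up nearly all of these sums, at 4282 to 8272 in INC and 3776 to 5169 in TE. CGA was scarce like PRL, at 7.10 ± 10.96 in INC and 2.03 ± 3.03 in TE. The mean log2 value thus rests in part on few reads. The part of pituitary markers in the other results was not tested.

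Markers of astrocytes differed between the stages in part. Of these, 4 of 23 were called higher in INC (KCNJ10, ALDOC, CLU and SOX9), against 3.1% of all transcripts, and 19 of 23 had a positive log2 fold change (median 0.32). Their summed normalized counts were 73586 to 85853 in INC and 64935 to 71079 in TE, without overlap. Of these sums, ALDOC alone held 14546 ± 1436 in INC and 8884 ± 1317 in TE. The mean log2 value of the list did overlap, at 8.997 to 9.358 in INC and 8.649 to 9.007 in TE. The part of astrocyte markers in the other results was not tested. The oxygen carrier HBAD of red cells had 5410.0 ± 2488 in INC and 5048 ± 433 in TE, MBP of myelin 3302 ± 427 in INC and 3176 ± 342 in TE and AQP4, the astrocyte water channel, 4237 ± 314 in INC and 4017 ± 218 in TE, and none was called. The lists of red cells, vessels, meninges and choroid plexus had 0 called members of 9, 17, 13 and 11, where 3.53% of all transcripts were called. Red-cell markers leaned to TE, with 8 of 9 log2 fold changes negative (median -0.38), against 51.3% of all transcripts. Their mean log2 value overlapped, at 5.50 to 6.73 in INC and 6.31 to 6.57 in TE. The part of red-cell markers in the results was not tested. TTR, the thyroid hormone carrier of the choroid plexus, was very uneven, with 12.1, 10127, 7402, 887 and 8443 in INC, against 3987, 608, 8944 and 6112 in TE. Among T-cell and microglial markers, CD3E of T cells had 2.60 ± 1.99 in INC and 1.80 ± 1.39 in TE, CSF1R of microglia had 352 ± 49.9 in INC and 369 ± 61.6 in TE, and the called members CTSS (cathepsin S-like, 15.8 ± 7.88 in INC and 4.27 ± 2.77 in TE) and GATA3 were the only ones on those lists. The lists held 16 microglial and 12 T-cell genes measured, where 3.1% of all transcripts were called higher. ERMN, a cytoskeletal protein of myelinating cells, had 798, 647, 463, 349.9 and 454 in INC, against 245, 269, 384 and 350.0 in TE, with 85889 inside the TE range (log2 fold change 0.76, adjusted p = 0.0425). It was the 1 called member of 18 oligodendrocyte genes, where 3.1% of all transcripts were called higher. Of these oligodendrocyte genes 17 had a positive log2 fold change (median 0.20), and their summed normalized counts overlapped, at 15423 to 27007 in INC and 17118 to 22933 in TE. Their part in the results was not tested.

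The next genes are taken from the called transcripts with the smallest p. SLC5A6, a sodium-coupled carrier of biotin and pantothenate, had 37.1, 28.2, 43.01, 32.2 and 35.6 in INC, against 4.66, 10.2, 8.15 and 7.80 in TE. A more abundant transcript matched to the same name was also higher in INC, with 60.3, 65.8, 95.5, 113 and 115.6 in INC, against 48.5, 32.5, 25.1 and 53.6 in TE (log2 fold change 1.17, adjusted p = 0.00429), so the stages did not overlap in either. ATP1A4, the best match for a sodium pump alpha subunit, had 1989, 2344, 2682, 3138 and 2472 in INC, against 1127, 1208, 924 and 1673 in TE, again without overlap. KCNJ10, the astrocyte channel that takes up potassium, had 1233, 1205, 1294, 1326 and 979 in INC, against 570.1, 462, 393 and 682 in TE. ISYNA1, which makes inositol, an osmolyte and signalling precursor, had 293, 292, 428, 355 and 332 in INC, against 93.3, 90.0, 66.5 and 121 in TE. Their log2 fold changes were 2.08, 1.05, 1.22 and 1.88 (adjusted p = 9.21e-04, 8.24e-04, 3.05e-04 and 3.05e-04). SLC5A6, KCNJ10 and ISYNA1 were the 3 transcripts that also passed when the 9 VmT libraries were fitted alone, with adjusted p of 0.0469, 0.0469 and 0.00561.

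**Figure D2:**
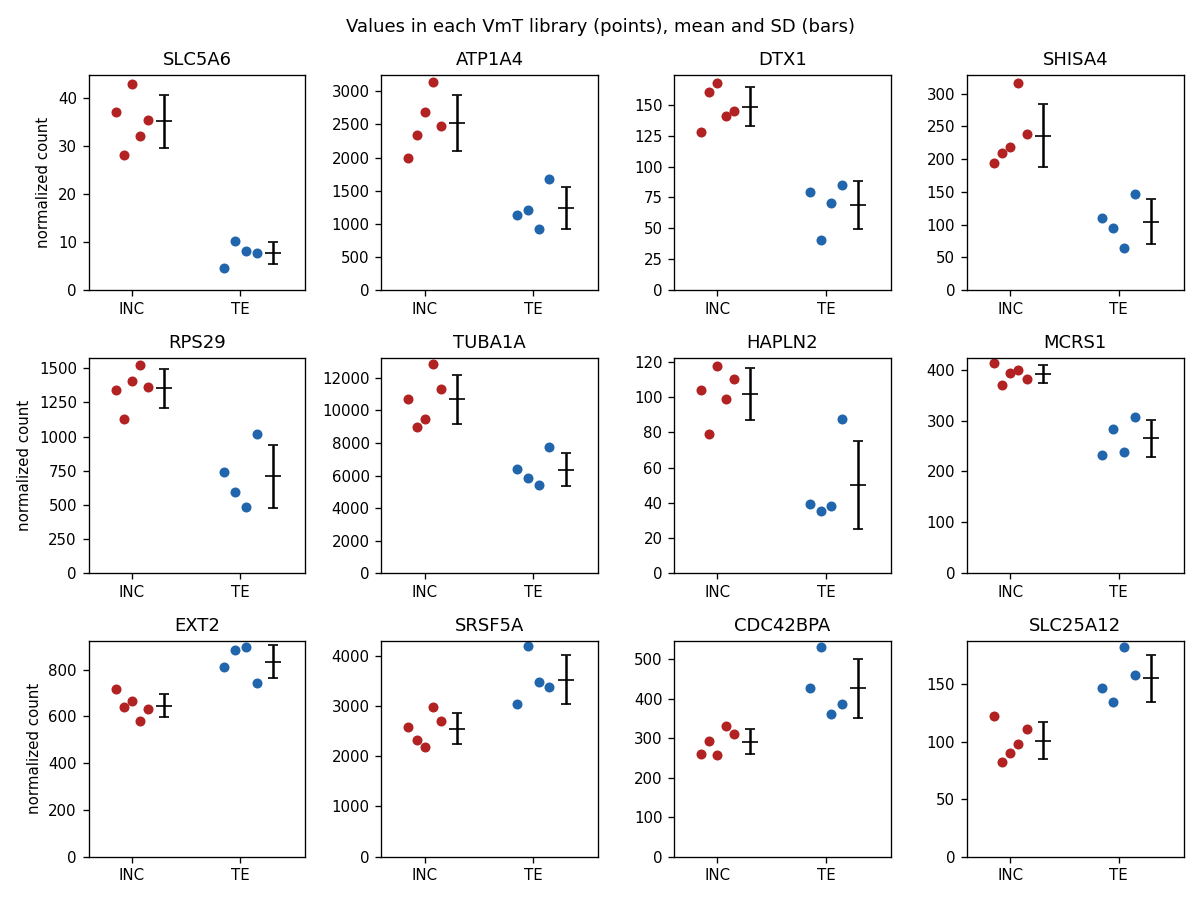
Normalized counts of 12 transcripts in each VmT library, INC left and TE right, points being libraries and bars the mean and SD. In all but HAPLN2, where TE female 85694 had 87.7, the 2 stages do not overlap.

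SHISA4, a membrane adaptor, had 195, 209, 219, 316 and 239 in INC, against 110.1, 95.6, 64.0 and 147 in TE. DTX1, a ubiquitin ligase that modulates Notch signalling, had 128, 159.9, 168, 141 and 145 in INC, against 79.3, 40.8, 70.9 and 84.8 in TE, and CCDC137, a nucleolar protein, had 86.2, 72.9, 89.2, 138 and 80.0 in INC, against 38.3, 44.5, 36.4 and 47.8 in TE. None of the 3 overlapped between stages, and their log2 fold changes were 1.21, 1.14 and 1.11 (adjusted p = 8.51e-04, 9.21e-04 and 8.24e-04). Of 53 genes of histone acetylation, 7 were called higher in INC and 0 lower, against 3.1% and 0.426% of all transcripts. The list median was 0.08, and the mean log2 value of the list was 7.68 to 7.84 in INC and 7.44 to 7.57 in TE, without overlap. Its summed normalized counts overlapped, at 20652 to 25070 in INC and 20819 to 21488 in TE. KANSL2, of the NSL acetyltransferase complex, had 114, 103, 123, 144 and 114.5 in INC, against 66.2, 51.05, 48.3 and 60.4 in TE (log2 fold change 1.07, adjusted p = 8.24e-04). MCRS1, of the same complex, had 414, 369, 393, 400.1 and 381 in INC, against 232, 283, 238 and 307 in TE, TADA3, an adaptor of SAGA-type complexes, had 711, 571, 571, 597 and 543 in INC, against 437, 409, 400.0 and 397 in TE, and ACTL6B, a neuronal subunit of chromatin remodelling complexes, had 301 ± 47.8 in INC and 199 ± 49.4 in TE, with log2 fold changes of 0.57, 0.54 and 0.61. Histone acetylation is a theme the study drew from these samples, so the count is no independent evidence of direction. Without the unsettled library 3 members were called, while over all transcripts the calls higher in INC fell from 604 to 358.

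Of 42 tubulins and motors of the cytoskeleton, 5 were called higher in INC, against 3.1% of all transcripts (list median 0.03), and all 5 were tubulins. TUBA1A, the main alpha tubulin of neurons, had 10691, 9016, 9502, 12848 and 11321 in INC, against 6421, 5855, 5416 and 7739 in TE. TUBA8 had 160.4, 143, 172, 265 and 193 in INC, against 104, 100.2, 95.9 and 102 in TE, with the TE females close together, and TUBB2B, a beta tubulin matched by a "-like" entry, had 380.2, 453, 344, 471 and 649 in INC, against 269.6, 173, 229 and 298 in TE. Their log2 fold changes were 0.75, 0.85 and 0.91 (adjusted p = 0.00132, 0.00311 and 0.0058), that of TUBB3 was 0.94, and that of TUBA1C was 0.81 with overlapping groups. Tubulin genes are near-identical copies, so reads may be split between them. Of 53 actin genes, 3 were called higher in INC and 1 lower, against 3.1% and 0.426% of all transcripts, while 34 had a negative log2 fold change (median -0.08). ACTG1, cytoplasmic actin, had 6009, 6119.6, 6737, 7657 and 8192 in INC, against 5110.0, 4232, 3754 and 5389 in TE (log2 fold change 0.59, adjusted p = 0.00389), and FSCN1, the bundling protein fascin, had 37.1, 56.4, 97.5, 214 and 126 in INC, against 37.3, 21.3, 15.7 and 38.02 in TE, with 85757 inside the TE range (log2 fold change 1.72, adjusted p = 0.00964). LIMK1, the kinase that inactivates cofilin, averaged 88.4 ± 14.6 in INC and 56.5 ± 7.89 in TE. ACTN1, the crosslinker alpha-actinin, was the member lower in INC, with 1159, 1320.1, 1286, 1256 and 1179 in INC, against 1766, 1894, 1346 and 1449.8 in TE (log2 fold change -0.37, adjusted p = 0.0198).

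**Figure D3:**
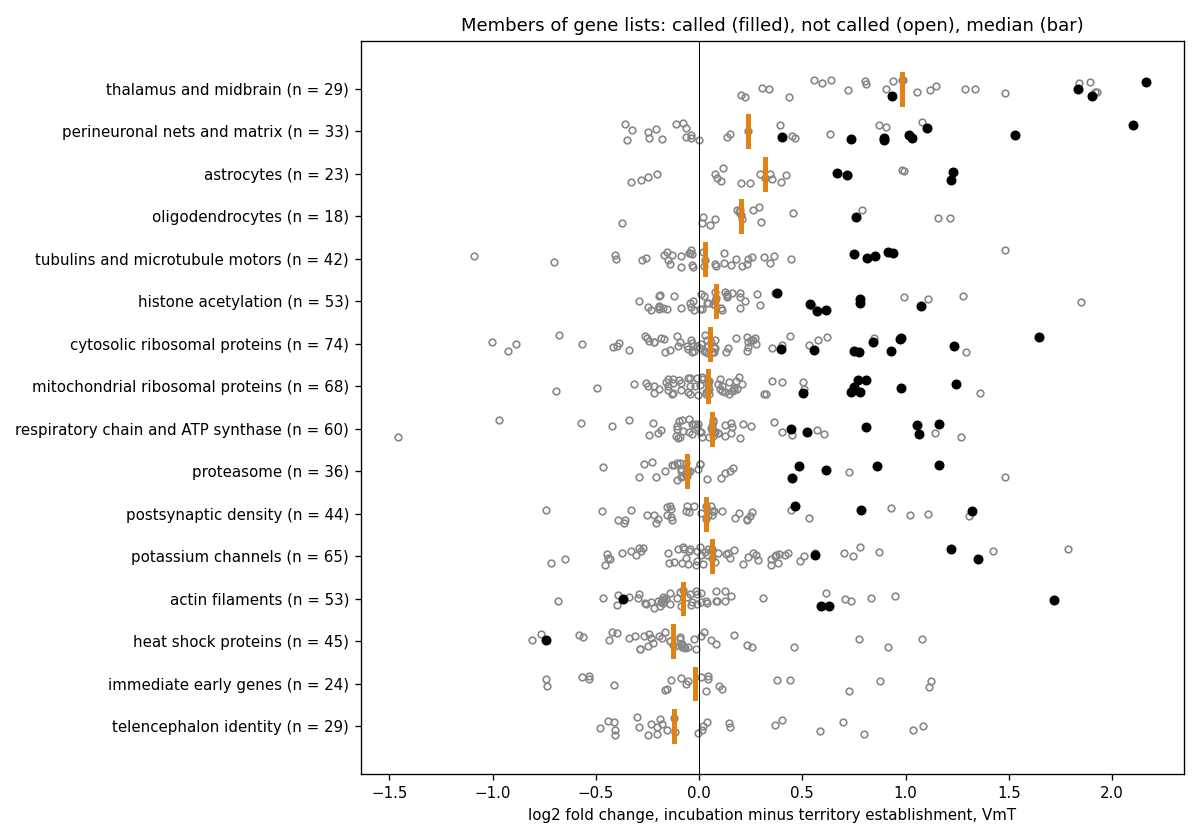
Log2 fold change (INC minus TE) of the members of 16 gene lists in the VmT, 1 point per gene, filled where called, with the list median as an orange bar. The thalamus and midbrain list lies wholly above 0, while most other lists are centred near 0 with called members mostly to the right of 0.

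Protein synthesis genes were called in a minority of each list. The cytosolic ribosome had 10 of 74 measured proteins called higher in INC, against 3.1% of all transcripts, and none lower, around a list median of 0.05. RPS29 had 1342, 1132, 1409, 1523 and 1359.6 in INC, against 743, 594, 485 and 1019 in TE (log2 fold change 0.98, adjusted p = 0.00117). RACK1, a scaffold on the small subunit, had 555, 375, 501, 763 and 585 in INC, against 277, 272, 214 and 402 in TE, and RPLP2, of the stalk, had 566, 437, 424, 715 and 656 in INC, against 271, 304, 311 and 406 in TE, with log2 fold changes of 0.93 and 0.78. Of these 3 only RACK1 overlapped, through INC female 85774. INC female 85757 stood apart on the whole list, with a mean log2 value of 8.25, against 7.14 to 7.43 in the other INC females and 6.97 to 7.56 in TE females, yet was not the highest library for RPS29, RACK1 or RPLP2. It was also highest on translation factors (9.41, at most 9.09 elsewhere), mitochondrial ribosomal proteins (7.85, at most 7.46) and the respiratory chain (8.54, at most 7.97). The same held for the proteasome (9.59, at most 9.23), the vacuolar proton pump (8.48, at most 8.18) and glycolysis (9.57, at most 9.20). The serotonin synthesis enzyme TPH2 and the serotonin transporter SLC6A4, chosen after their values were seen, were also highest in 85757. TPH2 belongs to the hindbrain markers, whose mean log2 value was highest in 85757 too. TPH2 had 77.0, 23.5, 14.7, 22.7 and 25.6 in INC, against 17.7, 20.4, 21.9 and 5.85 in TE, SLC6A4 was at 113 in 85757 and at most 15.3 in any other VmT library, and neither was called (adjusted p = 0.415 and 0.744). The median of the ribosomal list ran between -0.10 and 0.11 when each VmT library was left out. Of 53 translation factors, 4 were called higher and 1 lower, against 3.1% and 0.426% of all transcripts (list median -0.02). EEF2, which moves the ribosome along, had 10744, 8890.2, 9610.2, 10824 and 10226 in INC, against 7072, 6440.2, 6515 and 8503 in TE, and EEF1A2, which brings tRNA to it in neurons and muscle, had 9969, 8009, 9002, 8627 and 8192 in INC, against 6491, 6267, 5816 and 7531 in TE (log2 fold changes 0.50 and 0.43, adjusted p = 0.00429 and 0.00778). EIF4B, an initiation factor, averaged 219 ± 22.1 in INC and 147 ± 21.3 in TE, and EEF1G, at low counts, 21.3 ± 11.8 in INC and 6.06 ± 6.17 in TE.

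Of 68 mitochondrial ribosomal proteins 8 were called higher in INC, against 3.1% of all transcripts, and none lower, with a median of 0.04. MRPS2 had 145, 108, 142, 186 and 138 in INC, against 97.0, 78.9, 64.0 and 84.8 in TE, and MRPS12 had 56.6, 45.8, 52.4, 107 and 67.8 in INC, against 25.2, 25.99, 16.9 and 40.9 in TE. MRPL2 averaged 220.4 ± 26.3 in INC and 133 ± 22.8 in TE and MRPL43 59.8 ± 6.96 in INC and 35.1 ± 8.21 in TE, and none of the 4 overlapped. Of 60 subunits of the respiratory chain and ATP synthase, 6 were called higher, against the same 3.1%, and none lower (median 0.06). NDUFV1, the subunit of complex I that accepts electrons from NADH, had 351, 276, 357, 821 and 577 in INC, against 198, 194, 137 and 279.8 in TE (log2 fold change 1.163, adjusted p = 0.00927). UQCRQ of complex III had 665, 451, 436, 574 and 438 in INC, against 359, 351, 374 and 399.7 in TE and ATP5MC2, a ring subunit of ATP synthase, had 230.0, 108, 139.5, 248 and 198 in INC, against 69.97, 73.3, 55.8 and 171 in TE, the second with TE female 85694 inside the INC range, as it was for NDUFV1. Without the unsettled library 3 and 2 members of these lists were called, while over all transcripts the calls higher in INC fell from 604 to 358.

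The proteasome, which breaks down ubiquitin-marked proteins, had 5 of 36 subunits called higher in INC, against 3.1% of all transcripts, and none lower, while the list median was -0.06. PSMC5, an ATPase of the cap, had 1148, 929, 975, 1103 and 1039 in INC, against 705, 574, 641 and 809 in TE and PSMB6, a catalytic subunit, had 179.9, 106, 169, 337 and 270.1 in INC, against 91.4, 86.3, 71.5 and 102 in TE (log2 fold changes 0.61 and 1.163, adjusted p = 0.00117 and 0.00374). PSMD4, a ubiquitin receptor, averaged 201 ± 36.1 in INC and 112 ± 31.8 in TE and PSMD3 624 ± 80.7 in INC and 456 ± 51.7 in TE. None of 15 genes of the vacuolar proton pump was called, against 3.53% of all transcripts. The most abundant, ATP6V1A, had 8035 ± 1396 in INC and 8378 ± 686 in TE. Chaperones leaned the other way: 34 of 45 had a negative log2 fold change, against 51.3% of all transcripts (list median -0.13), and 1 was called lower, against 0.426% of all transcripts. It was HSPA5, the chaperone of the endoplasmic reticulum, with 7552, 3749, 5039, 3669.6 and 4129.9 in INC, against 6136, 9302, 7067 and 9064 in TE (log2 fold change -0.74, adjusted p = 0.0372). INC female 85757 lay inside the TE range for HSPA5. HSP90AA1, the most abundant of the list, had 61069 ± 13130.3 in INC and 79487 ± 9111 in TE and was not called (adjusted p = 0.143).

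Part of the extracellular matrix genes were higher in INC. Of 33 genes of perineuronal nets and other matrix, 9 were called higher in INC and 0 lower, against 3.1% and 0.426% of all transcripts. The list median was 0.24. Perineuronal nets are a coat around neurons that limits plasticity. The list also holds matrix genes outside the nets, such as VTN and LAMB1, so the count is not one of net genes alone. HAPLN2, a link protein of nodes of Ranvier, had 104, 78.8, 117, 98.8 and 110.1 in INC, against 39.2, 35.3, 38.2 and 87.7 in TE (log2 fold change 1.10, adjusted p = 0.00433), so that TE female 85694 lay inside the INC range and the other TE females lay below it. VTN, vitronectin, had 1025, 904, 1479, 1040.2 and 1096 in INC, against 666, 504, 559 and 632 in TE, BCAN, the proteoglycan brevican, had 866, 585, 628, 848 and 770.4 in INC, against 462, 449, 342 and 519 in TE, and LAMB1, a laminin matched by a "-like" entry, had 46.4, 41.1, 36.7, 61.2 and 43.4 in INC, against 21.5, 13.9, 23.8 and 30.2 in TE, all without overlap. Their log2 fold changes were 0.90, 0.74 and 1.03. The count was 5 without 85689 and 1 without 85674 and 85689. Over all transcripts 604 were called higher in INC in the full fit, 329 without 85689 and 105 without the pair. CLU, the secreted chaperone clusterin, had 101, 83.5, 57.7, 153 and 116 in INC, against 60.6, 33.4, 23.2 and 58.5 in TE (log2 fold change 1.23, adjusted p = 0.0367) and SOX9, a transcription factor of astrocytes, had 38.02, 45.8, 40.9, 68.2 and 45.6 in INC, against 29.9, 34.3, 24.5 and 28.3 in TE (log2 fold change 0.67, adjusted p = 0.0425). CLU overlapped between the stages and SOX9 did not. Both are astrocyte markers, of which 4 of 23 were called, with GFAP at 456 ± 65.3 in INC and 354 ± 93.7 in TE not called, and their part in the matrix count was not tested.

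Of 25 sterol genes 3 were called higher in INC, against 3.1% of all transcripts, with a list median of 0.01. SREBF1, the transcription factor that switches on sterol and fatty acid genes, had 48.2, 49.4, 72.4, 111 and 86.7 in INC, against 21.5, 13.9, 23.2 and 46.8 in TE (log2 fold change 1.505, adjusted p = 0.00225), and EBP, an isomerase of cholesterol synthesis, had 85.3, 67.003, 98.6, 211 and 170.1 in INC, against 29.9, 43.6, 17.6 and 49.7 in TE (log2 fold change 1.78, adjusted p = 0.00117). MVD, which makes isopentenyl diphosphate, had 15.8, 8.23, 17.8, 43.9 and 20.01 in INC, against 12.1, 4.64, 3.14 and 7.80 in TE with overlap (adjusted p = 0.0404, and 0.0513 with the replicate block of females across regions). FABP3, a fatty acid carrier, had 121, 116, 81.8, 165 and 114.5 in INC, against 74.6, 47.3, 57.7 and 87.7 in TE and was the 1 called of 29 fatty acid genes, against 3.1% of all transcripts (log2 fold change 0.83, adjusted p = 0.0155, with 85840 inside the TE range), while the abundant FASN had 7416 ± 549 in INC and 7282 ± 824 in TE. Of 27 glycolytic genes 2 were called, both higher in INC, against 3.1% of all transcripts, and both aldolases: ALDOC, of astrocytes, had 15814, 12799.9, 15296, 15631 and 13187 in INC, against 9350.4, 7391, 8343 and 10454 in TE, and the scarce ALDOA-like transcript had 5.56, 9.40, 25.2, 53.3 and 58.9 in INC, against 5.60, 1.86, 1.25 and 2.92 in TE.

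Of 44 genes of the postsynaptic density 3 were called higher in INC, against 3.1% of all transcripts (list median 0.03), and 0 without the unsettled library. Leaving that library out lowered the calls higher in INC over all transcripts from 604 to 358. NLGN3, an adhesion protein of synapses, had 703, 884, 945, 955 and 879 in INC, against 795, 571, 526 and 657 in TE and SHANK1, a scaffold, had 191, 179, 281, 361 and 232 in INC, against 139, 189, 92.2 and 156 in TE (log2 fold changes 0.46 and 0.78, adjusted p = 0.0303 and 0.0461). Both overlapped through 1 INC female. GAP43, a protein of growing axons, had 1893, 1928, 1513, 1401 and 1392 in INC, against 1397, 1146, 1111 and 1259 in TE (log2 fold change 0.39, adjusted p = 0.0294). None of 24 glutamate receptors was called, against 3.53% of all transcripts. GRIN1 had 12373 ± 1597 in INC and 12186 ± 2526 in TE, and GRM5 574 ± 182 in INC and 716 ± 225 in TE. Immediate early genes, induced by neuronal firing, gave 0 calls of 24, against 3.53% of all transcripts. EGR1 among them had 1213, 1275, 1245, 1849.7 and 1353 in INC, against 2231, 3725, 1255 and 1476 in TE, with 85689 the highest (log2 fold change -0.53, adjusted p = 0.398). KCNAB2, an auxiliary subunit of potassium channels, had 1592, 1078, 1296, 1199 and 1025 in INC, against 832, 635, 830.2 and 1077 in TE (log2 fold change 0.56, adjusted p = 0.0127). KCNAB2, KCNJ10 and the scarce KCNMB4 were the 3 called of 65 potassium channel genes, against 3.1% of all transcripts (list median 0.06).

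The transcripts lower in INC were fewer and changed less. SRSF5A, a splicing factor, had 2579, 2316, 2182, 2982 and 2690.3 in INC, against 3037, 4189, 3486 and 3368 in TE, and GCFC2, which acts in intron turnover, had 265, 187, 205, 229 and 267 in INC, against 341, 344, 322 and 329.5 in TE (log2 fold changes -0.46 and -0.55, adjusted p = 0.0042 and 0.00981). EXT2, which builds heparan sulfate chains, had 715, 638, 664, 580.5 and 631 in INC, against 811, 884, 897 and 743 in TE (log2 fold change -0.37, adjusted p = 0.0114). None of the 3 overlapped between the stages. CDC42BPA, a kinase that acts on myosin and the cytoskeleton, had 259.7, 293, 258, 331 and 311 in INC, against 426, 532, 362 and 386 in TE, and MCF2L, a guanine nucleotide exchange factor, had 39.9, 78.8, 55.6, 85.5 and 80.0 in INC, against 121, 118, 105 and 100.4 in TE (log2 fold changes -0.54 and -0.75, adjusted p = 0.0156 and 0.0156). SLC25A12, the mitochondrial aspartate-glutamate carrier of neurons, had 122, 82.3, 90.2, 98.1 and 111 in INC, against 146, 135, 182 and 158 in TE (log2 fold change -0.62, adjusted p = 0.00787), opposite in direction to the respiratory chain genes called above. LPCAT1, which rebuilds membrane phospholipids, had 37.1, 50.5, 57.7, 77.7 and 77.8 in INC, against 106, 115.1, 96.6 and 95.5 in TE, and XRN1, which degrades RNA, had 63.1, 92.9, 97.5, 96.5 and 75.6 in INC, against 139, 144, 137 and 164 in TE (log2 fold changes -0.82 and -0.79, adjusted p = 0.0138 and 0.0135). Both measured transcripts of DCLK2, a kinase of the doublecortin family, were lower in INC, at a log2 fold change of -0.52 for the scarcer and -0.34 for the more abundant. UBN2 and TRPV1 had log2 fold changes of -0.47 and -0.42. Of 24 genes of telomere protection, 1 was called lower and 1 higher, against 0.426% and 3.1% of all transcripts. CTC1, of the complex that helps copy telomere ends, was lower, with 642, 624, 587, 566 and 575 in INC, against 677, 812, 660.2 and 890.1 in TE (log2 fold change -0.33, adjusted p = 0.0487), and NABP2, a single-strand binding protein at low counts, was higher, with 13.8 ± 4.34 in INC and 5.63 ± 3.29 in TE. The count of transcripts lower in INC was 15 without 85689 and 193 without 85757.

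Candidate genes of aggression, from a list the study drew up, showed 1 called higher and 1 lower of 80 measured, against 3.1% and 0.426% of all transcripts. No excess over these shares was tested. PREB, a factor that binds the prolactin promoter, had 67.7, 42.3, 66.1, 144 and 83.4 in INC, against 34.5, 35.3, 12.5 and 45.8 in TE (log2 fold change 1.33, standard error 0.30, adjusted p = 0.0106), with 85774 inside the TE range. SRD5A1, the reductase that makes 5-alpha androgens and neurosteroids, had 13.9, 29.4, 20.98, 18.8 and 14.5 in INC, against 27.1, 34.3, 44.5 and 38.998 in TE (log2 fold change -0.89, standard error 0.25, adjusted p = 0.0465), again with 85774 inside the TE range. AVPR1A, a vasotocin receptor, had 402, 348, 469, 415 and 409 in INC, against 347, 212, 393 and 242 in TE and was not called (adjusted p = 0.101). Without the unsettled library its adjusted p was 0.0406. That library held the highest TE value for AVPR1A, so leaving it out raised the log2 fold change, from 0.49 to 0.64. Other alternatives for AVPR1A are not given here.

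**Figure D4:**
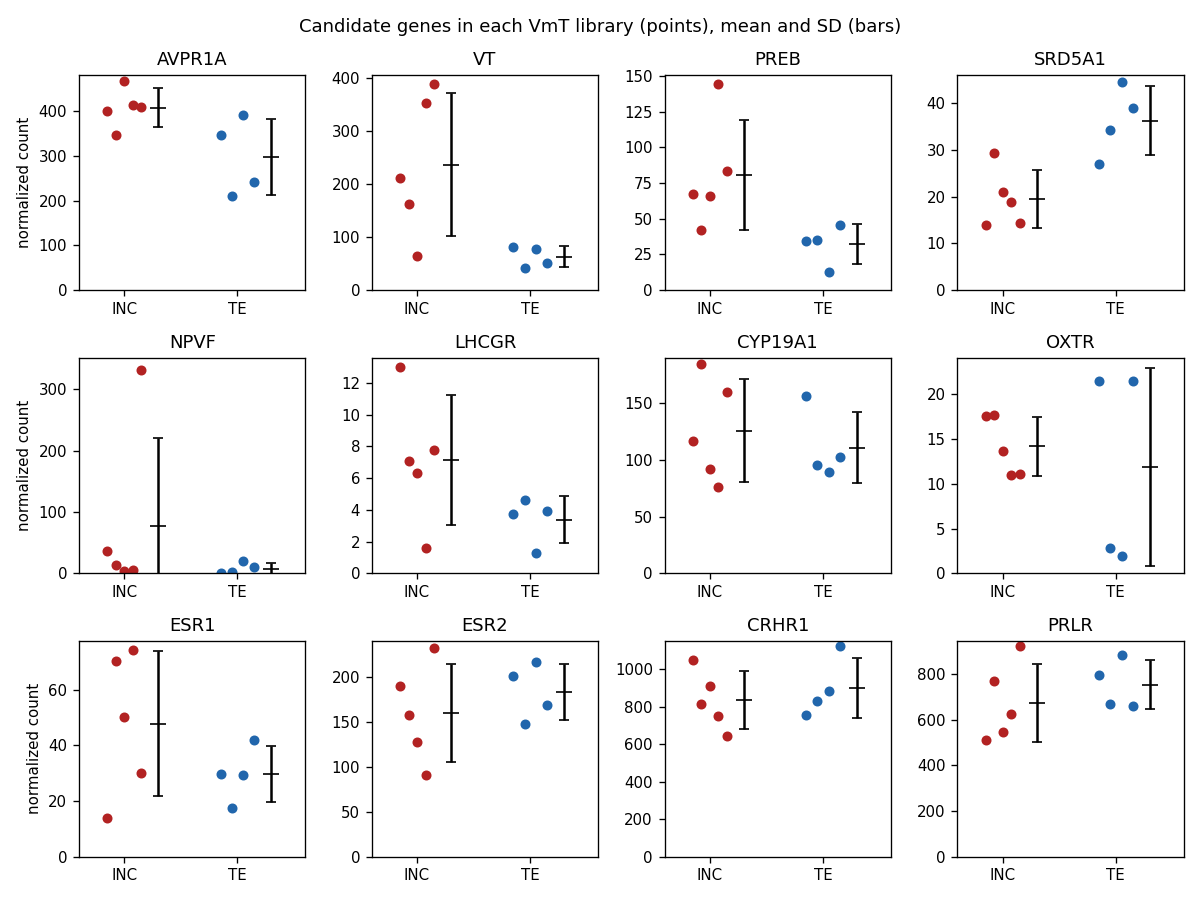
Normalized counts of 12 candidate genes in each VmT library, INC left and TE right, points being libraries and bars the mean and SD (cut at 0 for NPVF). PREB and SRD5A1 were called, and in NPVF 1 INC library at 331 stands far above the rest.

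None of the hormone receptors named next was called. ESR1 and ESR2, the oestrogen receptors, averaged 47.9 ± 25.99 in INC and 29.7 ± 9.92 in TE and 159.6 ± 54.8 in INC and 183 ± 30.98 in TE, and CYP19A1, aromatase, which makes oestrogen from androgen, averaged 126 ± 45.6 in INC and 111 ± 31.02 in TE. PRLR, the prolactin receptor, had 676 ± 171 in INC and 755 ± 108 in TE, CRHR1, a receptor for corticotropin-releasing hormone, 834 ± 155 in INC and 899 ± 161 in TE, and OXTR, the receptor of mesotocin, 14.2 ± 3.30 in INC and 11.9 ± 11.05 in TE. LHCGR, the luteinizing hormone receptor, had 7.14 ± 4.07 in INC and 3.38 ± 1.47 in TE and NOSIP, which binds nitric oxide synthase, 38.6 ± 32.6 in INC and 14.3 ± 5.21 in TE, the second with INC female 85889 at 93.3. Adjusted p was 0.719 for ESR1, 0.734 for ESR2, 0.894 for CYP19A1, 0.594 for PRLR and 0.879 for CRHR1. It is not given here for OXTR, LHCGR and NOSIP. Standard errors of the log2 fold changes were 0.14 for PRLR and 0.51 for ESR1, and a missed threshold does not show that the stages were alike.

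The same transcripts were followed in the hypothalamus (HYPO) and hindbrain (HB) libraries of the series. Among the 604 transcripts higher in the VmT in INC, the median log2 fold change was -0.46 in the HYPO and -0.08 in the HB, and among the 83 lower ones it was -0.01 and -0.13. The test of the difference between regions in the same fit called 518 of the 604 and 24 of the 83 against the HYPO, where it called 5.95% of all transcripts. Against the HB it called 84 and 0, where it called 0.437% of all (85 transcripts, and 257 with the replicate block). Since the VmT libraries enter both the calls and these differences, the shares are raised by the choice of transcripts and are a description. SHISA4 differed by 2.15 from the HYPO and by 1.49 from the HB (adjusted p = 1.09e-04 and 0.0231), and DTX1 by 1.73 and 1.32. In the HYPO the log2 fold change of SHISA4 was -0.94 and in the HB -0.28. For HSPA5 the log2 fold change was -0.74 in the VmT, -0.69 in the HYPO and -0.58 in the HB, and neither difference was called (adjusted p = 0.969 and 0.992).

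**Figure D5:**
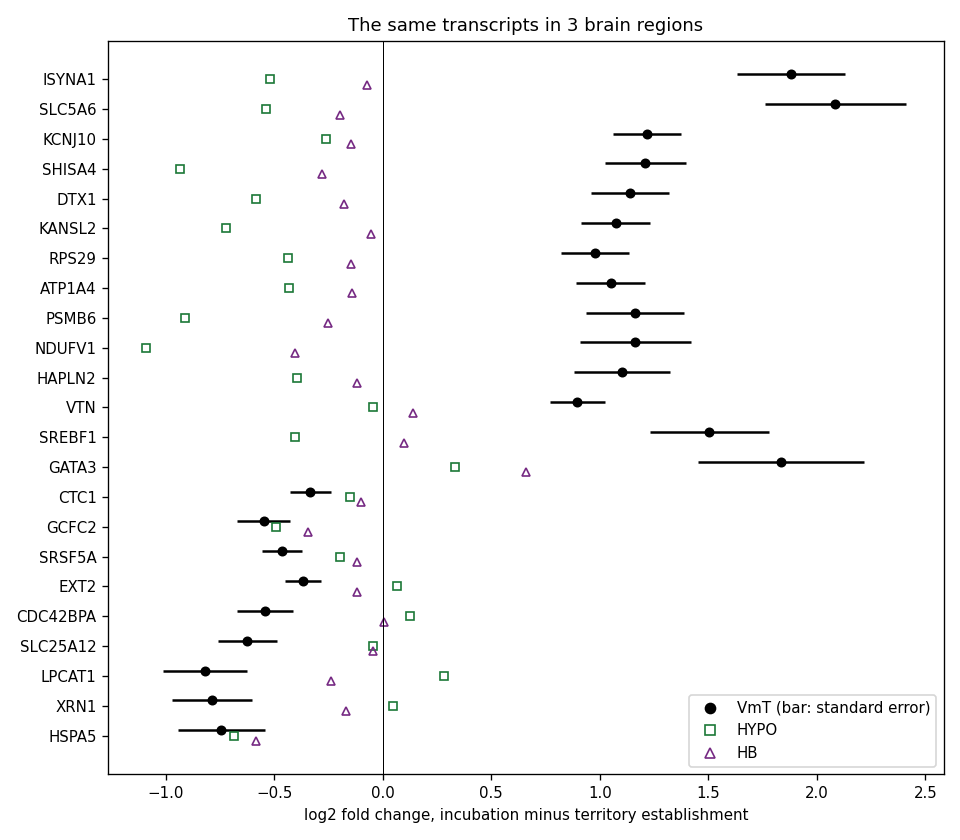
Log2 fold change (INC minus TE) of 23 transcripts in the VmT (filled circles with standard error), HYPO (open squares) and HB (open triangles). For ISYNA1, the VmT value is 1.88 and the HYPO value -0.52, whereas for GCFC2 they are -0.55 and -0.49.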

How the data were processed

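RNA was sequenced from macrodissected brain regions of female tree swallows. Per the labels and the study's methods, the authors trimmed reads with Trimmomatic 0.36, mapped them with Bowtie2 2.3.4.1 to a tree swallow transcriptome, kept proper pairs with SAMtools 1.3.1, counted reads per transcript and fitted DESeq2 1.16.1 in R 3.4.1. The deposited values are a signal, reads counted per transcript and scaled by a factor of each library: they were whole multiples of 1 step (tolerance 0.1 of a step), although their label names FPKM, and whole reads were recovered from them. Transcript length is not divided out, so levels are not compared between genes. All 27 value columns were mapped to a stage and region (0 unmapped); the labels list 30 samples, and 1 TE sample of each region was not analysed here.

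Transcripts had to reach 1 in no fewer than 4 libraries (19473 of 19478 did). log2(value + 1) was fitted with limma 3.58.1 (6 region by stage means, trended variance) in R 4.3.3, with all 27 libraries sharing 1 estimate of the spread, and called at an adjusted p of at most 0.05. The code was tested on simulated data. edgeR 4.0.16 and DESeq2 1.42.0 on the recovered reads, other pseudocounts, filters and scalings, and each library left out were alternatives. Replicate numbers are the females' numbers in the labels and mark the same female across regions, which pairs libraries between regions and not between stages; the correlation within females was 0.20. Gene symbols were attached to 2589 transcripts by best protein match. Named genes were the 12 smallest p in each direction among called transcripts with a symbol and a mean of at least 50, up to 4 called members of each list (the 2 most abundant where fewer than 2 were called), the first 4 markers of each cell type or region list, all called aggression candidates with 15 fixed candidates, and transcripts called in the VmT alone. The genes described are those of this set that the text needs; a few are not reported here. The comparison and the lists were chosen with earlier results of these data known. Promoter and protein sequences were not used here.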

Additional observations from a re-analysis of the deposited data

Results flagged for a closer look

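Within 1 stage, 7 values lay far from the other females of that stage on the log2 scale, a distance that chance gives in about 1 of 20 groups. The named genes numbered 168, and chance gives such values when many groups are looked at, so no more is read into these 7. In INC, LHX5 was at 89.2 and NLGN3 at 703 in females 85840 and 85757, and female 85889 had 15168 for GRIN1 and 1849.7 for EGR1. In TE, the unsettled library had 483 for TRPV1 and 379 for PSMD3, and female 85694 had 87.7 for HAPLN2.

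The difference between stages also differed between the VmT and another region for 86 pairings of a named gene with a region. A gene that differed from both regions is counted for each. The test was the region by stage test of limma with adjusted p of at most 0.05, and the named genes numbered 168. Over all transcripts it called 5.95% against the HYPO and 0.437% against the HB. Most of these genes were called in the VmT, whose libraries enter this test, so the test is not independent of the call. Values are VmT minus the other region, on the log2 scale. Both other regions differed for these 22 genes, HYPO first and HB second. Among them were KCNJ10 (1.48 and 1.37), ISYNA1 (2.40 and 1.95), VTN (0.94 and 0.76) and ALDOC (1.15 and 0.85). Further members were KANSL2 (1.79 and 1.13), CCDC137 (1.39 and 1.10), ATP1A4 (1.48 and 1.19) and SHISA4 (2.15 and 1.49). The rest included DTX1 (1.73 and 1.32), RPS29 (1.42 and 1.12), TUBB3 (1.35 and 0.99) and EBP (2.83 and 2.09). Others were TUBA1A (1.19 and 0.94), TUBA1C (1.33 and 1.06), ALDOA (3.79 and 3.09) and MCRS1 (0.94 and 0.68). Also in this set were RACK1 (1.56 and 1.14), MRPL2 (1.26 and 1.001), NDUFV1 (2.25 and 1.57) and PSMC5 (0.94 and 0.64). The last were PSMB6 (2.07 and 1.41) and SLC5A6 (2.62 and 2.28). Against the HYPO alone the difference was negative for EXT2 (-0.43), LPCAT1 (-1.10), MCF2L (-1.02) and CDC42BPA (-0.67). It was positive for SOX14 (2.14), LHX5 (1.11), CLU (1.76), SOX9 (1.13) and ERMN (1.06). Positive values were also found for CTSS (2.75), GAP43 (0.54), TUBB2B (1.17), NLGN3 (0.70) and ACTG1 (0.91). The same sign was seen in FSCN1 (2.86), LIMK1 (0.97), TUBA8 (1.61), SREBF1 (1.91) and MVD (2.48). Further positive differences were those of FABP3 (1.20), ACTL6B (1.32), TADA3 (0.80), NABP2 (1.69) and HAPLN2 (1.497). Higher VmT differences than in the HYPO were measured for BCAN (1.21), LAMB1 (1.46), KCNAB2 (0.75), EEF2 (0.65) and EEF1A2 (0.58). To these were added EIF4B (1.08), EEF1G (2.37), RPLP2 (1.35), MRPS2 (1.23) and MRPS12 (2.26). Positive too were MRPL43 (1.56), ATP5MC2 (1.67), UQCRQ (0.87), PSMD4 (1.39) and PSMD3 (0.87). The remaining genes were PREB (2.23), VT (2.97) and NOSIP (2.23).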

How the results depend on the processing

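None of the 83 named genes called changed direction under any alternative that gave it a value. The alternatives share libraries with the fit that called these genes, so the kept direction is only a description. The count of 687 transcripts called (604 higher and 83 lower in INC) moved with the libraries and the tool. It was 3 (3 higher, 0 lower) with the VmT libraries alone, 1045 (845 higher, 200 lower) with DESeq2, 110 (105 higher, 5 lower) without TE females 85674 and 85689, and 4 (4 higher, 0 lower) with the mean level of the thalamus and midbrain list added to the fit. edgeR gave 685 (570 higher), and 605 of the 687 were called by it. Leaving out each library in turn gave 344 to 873 calls, 329 to 721 higher and 15 to 193 lower, with the lowest total without TE female 85689 and the highest without INC female 85757, and with 425 (358 higher, 67 lower) without the unsettled library. With the replicate block of females across regions the count was 701 (601 higher, 100 lower), and among the 83 named genes called 1, MVD, lost its call. Of those 83, 80 lost the call with the VmT libraries alone, 60 without the 2 TE females, 77 with that list level (its own 4 called members were left out), 27 without 85689, 24 without the unsettled library and 18 without 85889. The cause was not tested. Depth was 7152856 to 13710385 reads, and 217 of the calls had a mean under 50.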
